A study of Mus musculus with 3 samples.

Results

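Windows of excess coverage are 1-kb windows of the autosomes on which TAPSβ reads piled up to a mean of 39 or more per cytosine, 3 times the median of 13. A window was counted when it held 5 or more CpG cytosines listed in TAPSβ, CAPS and PS. Of 2033998 such windows 1939 reached the limit, and they held 26030 of the listed cytosines. The windows were chosen by TAPSβ depth, so their TAPSβ depth is described and not tested. They were compared with 1981605 windows of usual depth, at 6.5 to 26 TAPSβ reads per cytosine.

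The 3 methods were applied to gDNA of the established mouse embryonic stem cell line E14, cultured on gelatin in serum with LIF, the MEK inhibitor PD0325901 and the GSK3 inhibitor CHIR99021. There was 1 library per method and no replicate, so every interval here covers counting error only, takes base calls from the same read as independent, and says nothing about the spread between cultures. The DNA was cut to 200 to 400 bp for CAPS and to 300 to 500 bp for TAPSβ and PS. The TAPSβ library gave 511365019 base calls on 39910857 listed cytosines, CAPS 377288829 on 39990774 and PS 383591531 on 40135005, with median depths of 13, 9 and 9 reads.

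5mC is the methyl mark of CpG cytosines, and TET enzymes oxidise it to 5hmC, then to 5fC and 5caC. TAPSβ reads 5mC as T and also reads 5fC and 5caC as T, CAPS reads 5hmC as T and also reads 5fC and 5caC as T, and PS reads only 5fC and 5caC as T. A C-to-T difference in the DNA sequence is read as T by all 3 methods, on the strand that carries the C. Maintenance methylation copies 5mC to both strands of a CpG. When cells hold more copies of a segment than the reference assembly does, the reads of all copies can pile up on the copy that the assembly holds. Gene clusters of zinc finger proteins, immune receptors, chemosensory receptors and detoxifying enzymes are known to differ in copy number between mouse strains.

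The reference sequence around 5 CpGs shows what a strong PS signal looks like, in windows picked for it. Each is the CpG with the highest PS level in its window, at 10 or more PS reads, in the 3 windows with the highest PS levels among the 10 deepest, followed by the 2 windows lowest in CAPS minus PS that were not deep in TAPSβ only, a group described later. The sequences are from NCBIM37, the assembly also called mm9, and are given 5′ to 3′ on the plus strand with the CpG in capitals.
chr12:116842108-116842229: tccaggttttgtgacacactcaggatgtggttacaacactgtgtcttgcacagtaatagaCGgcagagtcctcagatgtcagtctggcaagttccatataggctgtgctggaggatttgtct
chr4:145152361-145152482: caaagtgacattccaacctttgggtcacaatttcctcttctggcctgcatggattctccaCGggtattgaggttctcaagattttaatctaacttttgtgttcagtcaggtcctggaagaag
chr4:146802179-146802300: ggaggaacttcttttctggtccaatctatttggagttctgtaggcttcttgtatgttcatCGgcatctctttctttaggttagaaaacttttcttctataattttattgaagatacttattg
chr8:72129585-72129706: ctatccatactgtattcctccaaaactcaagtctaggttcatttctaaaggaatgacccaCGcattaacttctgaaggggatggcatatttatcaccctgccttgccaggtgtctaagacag
chr12:116837242-116837363: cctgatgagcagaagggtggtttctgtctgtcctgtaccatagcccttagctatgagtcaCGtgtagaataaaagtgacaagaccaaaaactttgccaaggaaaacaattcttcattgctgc

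At the first CpG, in a window with an exon of Ighv1-67, a variable segment of the immunoglobulin heavy chain, the plus-strand cytosine was read as modified in 74 of 90 PS reads (82.2%), 82 of 112 CAPS reads (73.2%) and 98 of 117 TAPSβ reads (83.8%). The minus-strand cytosine of the same CpG was modified in 9 of 89 PS reads (10.1%), 12 of 96 CAPS reads (12.5%) and 32 of 122 TAPSβ reads (26.2%). At the next CpG, in a window in an intron of the predicted gene Gm13242, the minus strand carried the signal, with 63 of 104 PS reads (60.6%) and 47 of 97 CAPS reads (48.5%). The plus strand there had 0 of 98 modified PS reads, which allows a level of up to 3.06%, and 0 of 109 CAPS reads, which allows up to 2.75%. At the remaining CpGs the minus strand also carried the signal, at PS levels of 31.5%, 67.7% and 58.5% and CAPS levels of 37.8%, 44% and 38.6%. The plus strand had no modified PS read among 116, 23 and 42, which allows up to 2.59%, 13% and 7.14%. It had no modified CAPS read among 116, 30 and 59, which allows up to 2.59%, 10% and 5.08%. The high PS level on 1 strand follows from the choice of these CpGs. The cytosine on the other strand was a candidate too, so its PS level is fixed to be no higher. CAPS took no part in picking the CpG within its window. It did take part in picking the windows lowest in CAPS minus PS, where that choice favours low CAPS. In 4 of the 5, those windows among them, the other strand had no modified read in PS or CAPS.

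The windows lay in clusters. Joining windows whose starts were at most 10 kb apart gave 518 blocks. Of these, 317 held 1 window, and 87 held 5 or more windows and together 1321 windows (68.1% of all). The 10 largest held 516 windows (26.6%). By chromosome, 356 windows (18.4%) lay on chromosome 4, 279 (14.4%) on chromosome 14, 233 (12%) on chromosome 13, 191 (9.85%) on chromosome 12 and 170 (8.77%) on chromosome 7, while chromosome 19 held 6. Chromosomes 4 and 14 also had the highest share of their own tested windows in the set, 0.283% on each, and chromosome 2 the lowest, 0.0111%.

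The windows lay closer to gaps in the assembly, runs of 100 or more unknown bases, than windows of usual depth did. Windows of the same block lie at similar distances, so this rests on fewer places than there are windows. The median distance to the nearest gap was 571 kb (quartiles 211 and 2331 kb) against 5969 kb (quartiles 2348 and 13879 kb) for windows of usual depth. Within 100 kb of a gap lay 253 of them (13%), against 1.22% of the windows of usual depth. No annotated gene covered 1137 of them (58.6%, against 54.0%). Introns of protein-coding genes covered 396 (20.4%, against 32.0%), their exons 184 (9.49%, against 11.1%), and introns or exons of other genes, which include long noncoding RNAs and pseudogenes, 138 (7.12%, against 1.74%) and 84 (4.33%, against 1.08%). The start of a protein-coding gene fell in 39 (2.01%, against 0.951%). Genes were those of the GENCODE annotation of this assembly, and a window was assigned in the order exon of a protein-coding gene, its intron, then other genes.

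Whether these windows hold sequence that is repeated in the assembly was checked by counting exact copies of each stretch of 100 bases on either strand of the whole reference. The median window had 13.8% of its stretches in more than 1 copy (quartiles 0.111 and 41.5%), while in every 1000th window of usual depth, 1982 windows in all, the median was 0. With stretches of 31 bases the medians were 65.5% and 2.68%. Of the repeated stretches of 100 bases, 63.3% had another copy within 1 Mb, against 35.8% of those in windows of usual depth. No repeated stretch of 100 bases was found in 476 windows (24.5%, against 85.4% of the windows of usual depth). In 374 (19.3%, against 1.31%) it was 50% or more of the stretches. Repeated stretches were thus more frequent than in windows of usual depth. The name of repeated sequence still holds only in part for the assembly, and for those 476 it could not be read from the assembly at this length.

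Both other libraries were also deep over most of these windows. The median depth was 51.2 reads per cytosine in TAPSβ (quartiles 43.6 and 65.6, highest 119), 37.3 in CAPS (30.2 and 48.6, highest 120) and 36.5 in PS (29.2 and 46.5, highest 116). Of the 1939 windows, 1668 (86.0%) reached 27 CAPS reads, 3 times the CAPS median, and 1616 (83.3%) reached 27 PS reads. Over all tested windows 0.113% reached this depth in CAPS and 0.103% in PS. Counted from the other side, the set held 72.6% of the 2296 windows that were deep in CAPS and 77.0% of the 2099 that were deep in PS. The median ratio of CAPS to TAPSβ depth was 0.717 (quartiles 0.647 and 0.797), against 0.738 (0.644 and 0.845) in windows of usual depth. The ratio of PS to TAPSβ was 0.691 against 0.722, and that of CAPS to PS was 1.04 against 1.02. The quartile ranges of the 2 sets overlapped for each ratio. The choice of windows by TAPSβ depth can by itself lower the 2 ratios to TAPSβ.

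The windows were divided by their CAPS and PS depths into groups, with limits drawn through a continuous range after the values were seen. In 1544 windows CAPS and PS both reached 27 reads per cytosine, and these are called deep in all 3 libraries. In 102 windows CAPS and PS both stayed at or below 18 reads, 2 times their median, and these are called deep in TAPSβ only. The remaining 293 lay between, with a median TAPSβ depth of 41.8 reads, near the limit, and CAPS depths (11.6 to 55.3 reads) that overlapped those of both other groups. In the windows deep in TAPSβ only, the median depth was 50.4 reads in TAPSβ, 6.35 in CAPS and 4.83 in PS, so that CAPS and PS were below their own medians of 9. Their median ratios to TAPSβ were 0.114 in CAPS and 0.103 in PS, against 0.742 and 0.712 in windows deep in all 3.

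**Figure D1:**
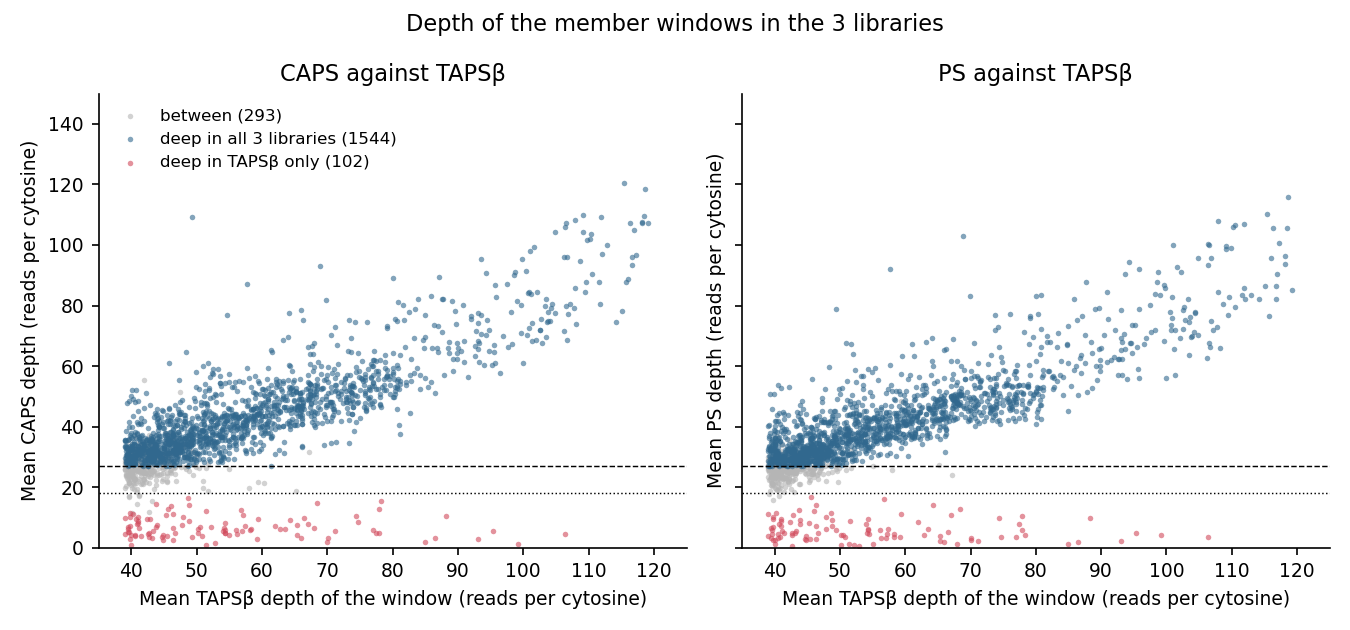
Mean depth of each of the 1939 windows in CAPS (left) and PS (right) against TAPSβ, in reads per cytosine. Each point is 1 window, coloured by group, and the dashed and dotted lines mark 27 and 18 reads. The 1544 windows deep in all 3 libraries rise with TAPSβ depth, and the 102 deep in TAPSβ only lie at or below 18 reads up to a TAPSβ depth of 106 reads.

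The 102 windows deep in TAPSβ only were unlike the others in position and copy number as well, measures that the depth limits did not use. They were spread over 101 blocks, and 96 were alone in their block. The median distance to a gap was 5240 kb, against 513 kb in the windows deep in all 3. A median of 86.7% of their stretches of 100 bases was repeated in the assembly, against 12.2%, and the median stretch had 179 copies, against 1. In 58 of them (56.9%) the median stretch had 100 or more copies, against 1 of 1544 windows (0.0648%) deep in all 3. Of the repeated stretches 91.0% had a copy on another sequence of the assembly, against 22.0%. The deepest, at chr10:23202001-23203000, outside any annotated gene, had 106 TAPSβ reads per cytosine, 4.5 CAPS reads and 3.67 PS reads, and its median stretch of 100 bases had 1481 copies. The next, at chr12:65706001-65707000, had 99.2, 1.33 and 4.33 reads and 2414 copies. The third, at chr16:95735001-95736000 in an intron of Erg, an ETS transcription factor gene, had 95.3, 5.67 and 5.00 reads and 2368 copies.

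Depth fell within a few kb of a block's outer window. At the 87 blocks of 5 or more windows the median TAPSβ depth was 46.9 reads in the outermost member, 23.9 in the window 1 kb outside and 16.1 in the window 10 kb outside, with a lowest median of 13.9 at 4 kb and 20.5 at 19 kb. CAPS had 34.8, 17.0 and 11.3 reads in the outermost member and 1 and 10 kb outside, and PS 32.9, 17.6 and 11.5, so both were lower from the same place on. The rule on depth fixes that the outermost TAPSβ window is above the limit, and joining at 10 kb fixes that the windows up to 10 kb outside are below it or hold too few cytosines; CAPS and PS took no part in either. Inside the blocks 1968 windows had enough cytosines and 647 of them were below the limit.

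**Figure D2:**
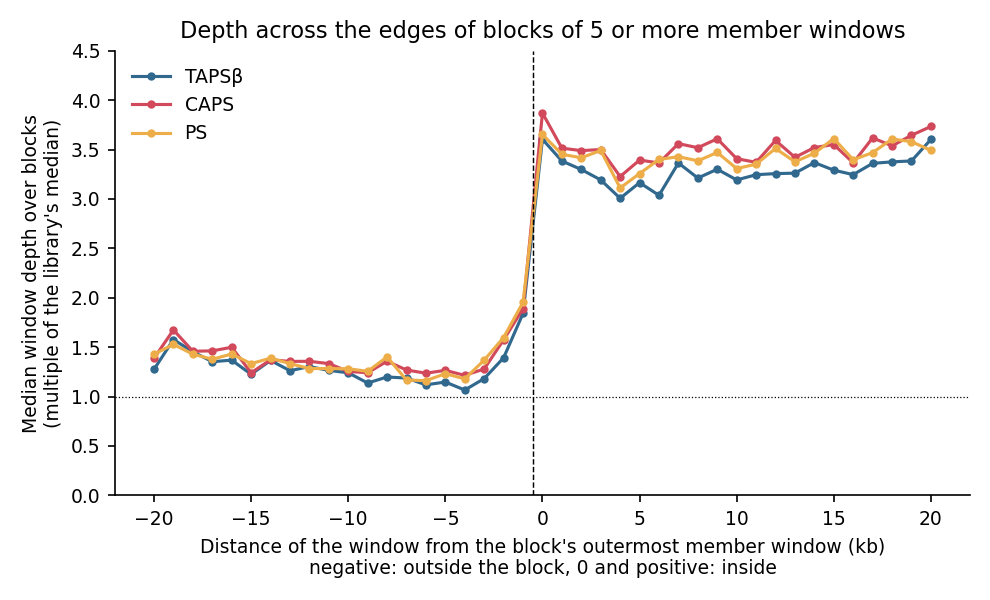
Median depth at the edges of the 87 blocks of 5 or more windows (174 edges at distance 0, and 71 to 148 edges with a tested window at the other distances), as a multiple of each library's median (13 reads in TAPSβ, 9 in CAPS and PS), against the distance from the block's outermost member window in kb. Negative distances lie outside the block, and distance 0 is a member window by rule. The dotted line marks the median itself, and the 3 libraries step up together at the block's edge.

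The limit itself cuts through a continuous range. Exactly 39 reads per cytosine were reached by 10 windows. The 5 of them described here lay in introns of C130026I21Rik and Sp140 on chromosome 1, in no gene on chromosome 10, in an intron of Naip3 on chromosome 13 and in introns of Gm17452 and Gm13150 on chromosome 4, with CAPS depths of 19.9 to 35.3 and PS depths of 23.3 to 29.1 reads. The 5 windows just below the limit had 38.9 TAPSβ reads, and CAPS depths of 27 to 36.4 and PS depths of 23.9 to 38.2 reads. The latter held an exon of Naip6 and an exon of Tmem181b-ps, so both genes had windows on either side of the limit.

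The 10 deepest windows had 116 to 119 TAPSβ reads per cytosine, about 9 times the median, and all 10 were deep in CAPS (93.4 to 118 reads) and PS (82.2 to 116 reads). There were 5 on chromosome 4, 2 each on chromosomes 12 and 14, and 1 on chromosome 5. The nearest to a gap were chr4:146021001-146022000 at 3.62 kb and chr5:26337001-26338000 at 13.9 kb. Their PS levels ran from 0.369% at chr14:6034001-6035000, in an intron of Gm8237, to 20.5% at chr12:116842001-116843000, in Ighv1-67. Windows of nearly equal depth thus had PS levels on both sides of the pooled level of the set, 3.99%.

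Whether the pooled TAPSβ level was lower or higher than that of windows of usual depth depended on how the windows were chosen. TAPSβ also reads 5fC, 5caC and C-to-T differences as T, and what PS reads was not taken off. The PS level was 3.99% in the set and 0.207% in windows of usual depth. It was 3.82% in windows chosen by a CAPS depth of 27 reads or more. The TAPSβ levels compared here are therefore not 5mC alone. Pooled over base calls, the TAPSβ level was 54.3% (95% exact binomial interval 54.2 to 54.3%) against 57.3% in windows of usual depth. Windows chosen by a CAPS depth of 27 reads or more had a pooled level of 58.5%, above that of usual depth. Only the pooled level was computed for them, and in it windows with many cytosines weigh more. In the set chosen by TAPSβ depth the median window had 62.4% (quartiles 52.3 and 70.3%) against 68.3% (59.2 and 74.7%). Of its windows 78.9% had 50% or more, against 86.7%. On 6 of 19 autosomes the windows had the higher pooled level, and on 13 the lower. Windows deep in TAPSβ only had a pooled level of 76.2% (interval 75.8 to 76.5%) and a median of 77.8%, windows deep in all 3 56.8% (56.7 to 56.9%), and those between 33.7% (33.5 to 33.9%). The median window of the last group had 55.5% (quartiles 41.9 and 64.6%), well above its pooled level, in which windows with many cytosines weigh more.

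**Figure D3:**
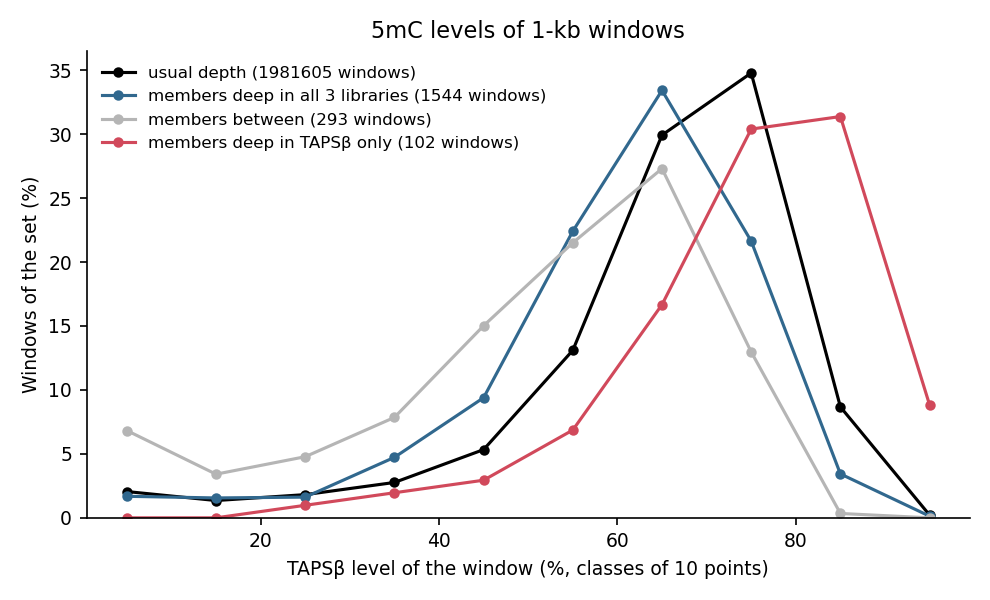
Distribution of the TAPSβ level of 1-kb windows, in classes of 10 percentage points, as the percent of windows of each set. Windows deep in all 3 libraries are most frequent at 60 to 70% (33.4% of them), windows between at 60 to 70% (27.3%), windows of usual depth at 70 to 80% (34.8%) and windows deep in TAPSβ only at 80 to 90% (31.4%).

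The highest TAPSβ level, 92.7%, was at chr13:12919001-12920000 in the largest block, followed by 2 windows deep in TAPSβ only, at chr3:125863001-125864000 (92.7%) and chr14:16672001-16673000 (92.6%). The lowest was 0.745% at chr13:66542001-66543000, in an exon of 2410141K09Rik, with 9 listed cytosines. The next were 1.00% at chr12:20318001-20319000, which held 184 cytosines and no annotated gene, and 1.17% at chr13:66816001-66817000, which held 57. In all, 46 windows (2.37%) had a TAPSβ level under 10%, against 2.06% of the windows of usual depth, and 9 of the 46 (19.6%) held the start of a protein-coding gene, against 25.8% of such windows of usual depth. These 46 had a median of 48 listed cytosines, from 6 to 184, against a median of 10 in the other windows of the set. The stretch of 200 bases with the most CpGs in each of the CpG-rich pair is shown to make this visible, on the plus strand of NCBIM37 with every CpG in capitals.
chr12:20318154-20318353: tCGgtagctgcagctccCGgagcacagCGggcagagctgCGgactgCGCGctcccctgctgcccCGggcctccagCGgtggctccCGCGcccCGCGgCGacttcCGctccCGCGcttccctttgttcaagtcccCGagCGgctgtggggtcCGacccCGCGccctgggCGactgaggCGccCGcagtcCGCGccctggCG
chr13:66816744-66816943: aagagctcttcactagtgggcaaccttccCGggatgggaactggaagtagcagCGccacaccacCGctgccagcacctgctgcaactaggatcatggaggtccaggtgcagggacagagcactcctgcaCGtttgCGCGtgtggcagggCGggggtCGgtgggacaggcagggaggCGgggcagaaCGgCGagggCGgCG

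The first stretch holds 27 CpGs and the second 13. In these 2 windows CAPS and PS were below the pooled levels of the set, but PS was not below the 0.207% of windows of usual depth. The window on chromosome 12 had a CAPS level of 1.09% (3947 base calls) and a PS level of 0.646% (4641 base calls), and the one on chromosome 13 had 1.15% (1907 base calls) and 0.361% (2218 base calls).

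CAPS and PS levels were both higher in the windows when all cytosines were counted. The pooled CAPS level was 5.81% (interval 5.76 to 5.85%) against 3.18% in windows of usual depth, and the pooled PS level was 3.99% (3.95 to 4.02%) against 0.207% (0.206 to 0.207%). The PS level was higher than in windows of usual depth on 19 of 19 autosomes, with a range of 1.11 to 10.8% against 0.190 to 0.245%. The CAPS level was higher on 18. The windows deep in TAPSβ only went the other way in CAPS, at 2.44% (2.12 to 2.80%), and had a PS level of 1.19% (0.951 to 1.47%). PS amounted to 68.6% of the CAPS level in the windows and to 6.50% in windows of usual depth. The PS level of usual depth, 0.207%, was below the rate of 0.0027 used later for unmodified DNA in PS. The 6.50% therefore cannot be told apart from false modified reads. With increasing TAPSβ depth, the PS level was 3.52% at 3 to below 4 times the median, 3.17% at 4 to below 5 times, 4.09% at 5 to below 6 times and 6.51% at 6 times or more.

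The windows were uneven in PS. The median was 1.83% (quartiles 0.170 and 6.01%), 429 windows (22.1%) had no modified PS read at all, against 75.7% of the windows of usual depth, and 710 (36.6%) had a level under 0.5%, against 85.7%. In 577 (29.8%) the level was 5% or more, against 0.189% of the windows of usual depth. In the 710 windows with PS under 0.5% a median of 23.4% of the stretches of 100 bases was repeated in the assembly, while in the 263 windows with PS of 10% or more the median was 0.

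PS and CAPS levels moved together from window to window. Over the 1855 windows with 100 or more base calls in both libraries Pearson's r was 0.925 and Spearman's rho 0.852, and over 1313722 windows of usual depth they were 0.124 and 0.0793. These points share the DNA and the reference sequence, and windows of 1 block are not independent, so no p is given. Over all windows of usual depth the median was 141 PS base calls, and 75.7% had no modified PS read. In the set the values were 376 and 22.1%. Few modified reads hold a correlation down, so the coefficients of the set and of usual depth cannot be compared directly.

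The cytosine calls followed the same pattern. Each cytosine with at least 5 reads was tested for more modified reads than unmodified DNA would give, with a one-sided exact binomial test at rates of 0.0072 for CAPS and 0.0027 for PS and Benjamini-Hochberg adjustment over the whole table. Over the whole table the test called 1.64% of the cytosines in CAPS and 0.0791% in PS. In the windows it called 3566 of 25200 cytosines in CAPS (14.2%, interval 13.7 to 14.6%), and 2717 of 25404 in PS (10.7%, 10.3 to 11.1%). The other cytosines of the 26030 had under 5 reads in that library. With the pooled CAPS level of usual windows as the rate, the CAPS test called 1928 cytosines in the windows (7.65%) and 0.112% over the whole table. In the windows deep in TAPSβ only, the test at the rate of 0.0072 called 11 of 683 cytosines in CAPS (1.61%, 0.807 to 2.86%), a share near that of the whole table, and the PS test 4 of 656 (0.610%, 0.166 to 1.55%). Deep cytosines are called more easily, so the shares were also compared at the same number of reads. At 20 to 29 PS reads 435 of 4657 cytosines were called in the windows (9.34%, 8.52 to 10.2%) and 2910 of 238629 in windows of usual depth (1.22%, 1.18 to 1.26%). At 10 to 14 PS reads the shares were 3.67% and 0.0319%. In CAPS they were 12.1% and 5.02% at 20 to 29 reads and 4.69% and 1.69% at 10 to 14 reads.

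Most of the PS reads that were modified sat on few cytosines. A PS signal means here that at least 20% of the PS reads of a cytosine with 5 reads or more were modified. It was found at 1715 of 25404 cytosines (6.75%, interval 6.45 to 7.07%), against 0.0979% in windows of usual depth, where the median number of PS reads at such a cytosine was 7 against 38. These 1715 cytosines carried 73.7% of all modified PS reads of the windows, against 14.9% at such cytosines in windows of usual depth. At least 1 cytosine with a signal lay in 859 windows (44.3%), against 1.39% of the windows of usual depth. The CAPS level at the 1715 cytosines was 40.2% and the PS level 40.3%, a difference of -0.03 points (interval -0.52 to 0.47). The selection was on PS, and the CAPS reads took no part in it. The same selection in windows of usual depth, with a median of 7 PS reads, gave 23.8% in CAPS and 33.2% in PS, a difference of -9.38 points (-9.59 to -9.17). At so few reads the selection itself can raise PS, and values at 20 or more reads are given below. The TAPSβ level of the 1715 cytosines was 73.3%, against 52.4% at the other cytosines of the windows.

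The PS levels at these cytosines were spread widely below 100%. Among the 1548 with 20 or more PS reads, 35.1% had a level of 20 to below 30%, 21.8% of 30 to below 40%, 14.1% of 40 to below 50%, and 1.42% of 80% or more. With 20 or more reads in CAPS as well, 1460 remained, with a median PS level of 36.0% (quartiles 26.3 and 52.4%) and a median CAPS level of 37.5% (26.5 and 53.5%). The difference of CAPS and PS at 1 cytosine had a median of -0.16 points with quartiles of -6.84 and 6.61. In windows of usual depth 2781 cytosines with a signal had 20 or more PS reads. Of these 27.3%, 23.5% and 20.3% lay in the classes from 20, 30 and 40%. With 20 or more CAPS reads as well, 1642 remained there, with medians of 40% in PS and 43.5% in CAPS. Their difference had a median of 1.27 points with quartiles of -7.67 and 11.2.

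Nearly all CpGs with a PS signal had it on 1 strand. Of 12151 CpGs with 5 or more PS reads on each strand 746 had the signal on the plus strand only, 783 on the minus strand only and 74 on both. Both strands thus carried it in 4.62% of the 1603 CpGs with a signal (interval 3.64 to 5.76%), and 1 strand in 95.4%. At 20 or more reads on each strand the numbers were 640, 665 and 69. With called cytosines in place of the level limit, 2138 CpGs had a call on 1 strand and 259 on both, 10.8% (9.59 to 12.1%) of those with a call. In windows of usual depth 2.61% of the CpGs with a call (2.36 to 2.89%) had it on both strands, and 0.0882% of CpGs had a call, against 19.7% in the windows. Windows of usual depth had a signal at 0.188% of their CpGs, against 13.2% of the CpGs in the set. Of the CpGs with a signal at usual depth, 1.12% had it on both strands. At 20 or more PS reads on each strand, which few CpGs of usual TAPSβ depth reach, 1459 of 14107 CpGs there had a signal (10.3%), against 1374 of 9990 in the windows (13.8%), so the shares were much closer among deep CpGs than over all CpGs. Of these, both strands carried it in 2.54% (1.79 to 3.48%) and in 5.02% (3.93 to 6.31%). The more cytosines carry a signal or call, the more often both strands carry it, even if the strands are independent. The shares on both strands therefore cannot be compared apart from how frequent the signal was. The share that independent strands would give was not computed.

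The strands of these CpGs were told apart by their PS level, which is therefore fixed to be lower on the strand without the signal, while the TAPSβ and CAPS reads took no part in the choice. At the 1305 CpGs with a signal on 1 strand and 20 or more PS reads on each, the signal strand had levels of 76.2% in TAPSβ, 41.2% in CAPS and 41.2% in PS. The other strand had 36.4% in TAPSβ, 3.51% in CAPS and 1.92% in PS. At CpGs with the signal on both strands the pooled levels were 57.6%, 34.7% and 33.7%. In windows of usual depth 1422 CpGs had a signal on 1 strand at this number of reads. Their signal strand had 80.2% in TAPSβ, 44.6% in CAPS and 42.9% in PS, and their other strand 37.9%, 2.66% and 1.08%.

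**Figure D4:**
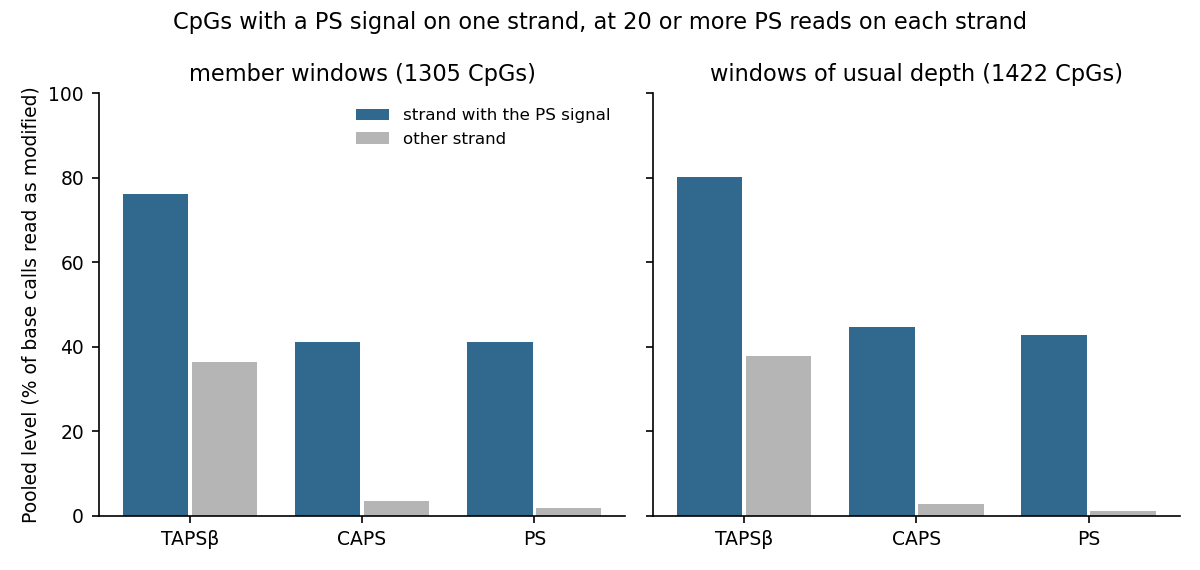
Pooled levels of the 3 libraries on the strand with the PS signal (dark) and on the other strand (light) at CpGs with a PS signal on 1 strand and 20 or more PS reads on each strand, in percent of base calls, with no error bars drawn. In the member windows (1305 CpGs) and in windows of usual depth (1422 CpGs) CAPS and PS are alike on the signal strand and low on the other. TAPSβ is 76.2% against 36.4% in the members and 80.2% against 37.9% in windows of usual depth.

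Of the CpGs with PS calls on both strands, the 5 with the most PS reads are described; calls need no minimum level, and deep cytosines can be called at low levels. At positions 102687727 and 102687728 of chromosome 6 the PS level was 5.34% of 131 reads on the plus strand and 12.3% of 130 on the minus strand, with CAPS at 7.50% and 7.26%. At 54607255 and 54607256 of chromosome 10 PS was 14.5% of 124 and 10.7% of 122 reads, and CAPS was 29.8% and 20.4%. The remaining 3, on chromosomes 4, 9 and 14, had PS levels of 4.83 to 23.1%.

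The difference of CAPS and PS is the part of the CAPS level that 5fC, 5caC and sequence differences, as PS reads them, do not account for, and is taken as the 5hmC left. It was smaller in the windows, 1.82 points (Newcombe 95% interval 1.76 to 1.88) against 2.97 points (2.97 to 2.97) in windows of usual depth. On 18 of 19 autosomes the windows had the lower difference, with a range of -0.06 to 3.15 points against 2.77 to 3.25. It was 31.4% of the CAPS level in the windows and 93.5% in windows of usual depth. No rate of false modified reads was subtracted, and the rates used for the calls would by themselves give a difference of 0.45 points. In the authors' spike-ins CAPS converted 5hmC incompletely, and PS converted 5fC less fully than CAPS did. The difference was not corrected for this either. Leaving out the cytosines with a PS signal brought the CAPS level down to 3.01% and the PS level to 1.13%, and the difference to 1.88 points (1.84 to 1.92), against 2.98 points. In windows of usual depth treated the same way CAPS was 3.15% and PS 0.176%, so PS stayed higher in the windows while CAPS came to lie below. The filter acts on PS itself.

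The lower difference was found in each class of TAPSβ level. In windows with a TAPSβ level of 20 to below 40% the difference was 3.3 points (3.04 to 3.56) against 5.87 in windows of usual depth. It was 1.85 points (1.71 to 1.99) against 4.44 at 40 to below 60%, 1.67 (1.60 to 1.75) against 2.64 at 60 to below 80%, 1.03 (0.854 to 1.20) against 1.80 from 80% on, and 1.34 (1.22 to 1.47) against 1.93 below 20%. It was also lower in each place, with 2.42 points against 2.96 in exons of protein-coding genes, 2.3 against 3.31 in their introns and 1.45 against 2.73 outside annotated genes. By PS level the difference was 1.91 points (1.9 to 2.0) in windows with PS under 0.5% and 1.05 points (0.774 to 1.33) in windows with PS of 10% or more, so it was below that of usual depth even where PS was low.

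Window by window, CAPS was above PS in 1605 of 1939 windows (82.8%) and below it in 280 (14.4%), against 3.05% below in windows of usual depth. A two-sided Fisher exact test on the base calls of each window, with Benjamini-Hochberg adjustment over all 2033998 windows, compares these 2 libraries and not conditions. Over all windows it called CAPS higher in 25.4% and PS higher in 0.00147% (30 windows). It called CAPS higher in 414 of the 1939 windows (21.4%), with a median of 388 CAPS base calls against 146 in windows of usual depth. On which side of the background this share lay depended on the cytosines used. With the plus strand alone CAPS was called higher in 159 windows (8.20%, against 6.94% of all), with the minus strand alone in 160 (8.25%, against 6.88%), and without the cytosines with a PS signal in 535 (27.6%, against 25.6%). With all cytosines it called PS higher in 3 windows (0.155%), and these are named because they were so few. They lay outside annotated genes at chr9:53852001-53853000 (PS 6.46%, CAPS 3.06%, adjusted p by Fisher's exact test 0.0054), chr12:116837001-116838000 (19.4% and 10.5%, adjusted p by Fisher's exact test 0.019) and chr13:101089001-101090000 (5.56% and 1.66%, adjusted p by Fisher's exact test 0.049).

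The largest differences that rest on many reads were at chr4:146679001-146680000, in an intron of Gm16889 and Gm17317, and at chr13:66527001-66528000, in an intron of 2410141K09Rik. The first had a CAPS level of 12.1% (365 base calls) and a PS level of 0.474% (422 base calls), a difference of 11.6 points (8.38 to 15.3). The second had 11.5% (445) and 0.249% (402), a difference of 11.2 points (8.34 to 14.5). Larger still in value was chr12:35310001-35311000, at 18.2 points, but it was deep in TAPSβ only and had 22 CAPS and 3 PS base calls, with an interval of -39.0 to 38.5. The lowest differences were -14.0 points at chr5:95604001-95605000, in an intron of Gm16513, with 30 CAPS and 25 PS base calls (interval -34.5 to 6.01), -9.04 points at chr8:72129001-72130000 (-17.3 to -1.28) and -8.89 points at chr12:116837001-116838000 (-15.0 to -2.91). The sequences of the last 2, with the CpG that carried their highest PS level, are shown above.

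The rule on TAPSβ depth keeps every window of a block at or above the limit and sets no limit on PS. The spread of depth over blocks therefore cannot be compared with that of PS. The blocks differed widely in PS level. The largest, chr13:12881001-13034000, held 100 windows and Prl2c3, a gene of the prolactin family. It had a mean TAPSβ depth of 68.6 ± 9.10 reads (SD over windows), CAPS of 49.4 and PS of 47.4 reads, a TAPSβ level of 69.5%, a CAPS level of 1.49% (1.39 to 1.59%) and a PS level of 0.303% (0.259 to 0.353%). The second, chr14:43929001-44109000, held 94 windows and predicted genes such as Gm8126, Gm8127, Gm9732 and Gm8138, with 57.3 ± 9.71 reads and levels of 65.1% in TAPSβ, 1.93% in CAPS and 0.291% (0.242 to 0.348%) in PS. The differences of CAPS and PS were 1.18 (1.07 to 1.30) and 1.64 points (1.5 to 1.78). Depth was 5.27 and 4.41 times the median in these blocks, and the PS level of windows of usual depth was 0.207%. The rate of 0.0027 for unmodified DNA in PS lay within the PS interval of both blocks. The Prl2c3 block still held 5 cytosines with a PS signal and a window at 5.78% PS. The block on chromosome 14 held 3 such cytosines and a window at 3.74%.

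The fourth block, chr1:173444001-173512000, had a much higher PS level. It held 50 windows over Itln1, which encodes the carbohydrate-binding lectin intelectin-1, Cd244, a receptor on natural killer cells, and Gm9765. Its depth was 70.4 ± 16.5 reads, near that of the Prl2c3 block, and all 50 windows were deep in all 3 libraries. The levels were 49.5% in TAPSβ, 16.7% (16.3 to 17.1%) in CAPS and 15.2% (14.8 to 15.6%) in PS, and 189 of its 644 cytosines had a PS signal. The difference of CAPS and PS was 1.52 points (0.948 to 2.09), and its interval overlapped that of the Prl2c3 block. The median window there had no stretch of 100 bases that was repeated in the assembly.

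The fifth, chr12:116827001-116932000, held 47 windows over immunoglobulin heavy chain variable segments (Ighv1-67 and Ighv8-12), with 69.7 ± 25.9 reads, a PS level of 9.52% (9.11 to 9.94%) and a difference of 1.02 points (0.428 to 1.61). A further 3 lay within 2 Mb on chromosome 4 among predicted genes named Gm, at 145102001 (41 windows), 146848001 (38) and 146764001 (34), with PS levels of 7.48%, 5.62% and 8.69% and differences of 3.02 (2.51 to 3.53), 1.88 (1.39 to 2.38) and 2.00 points (1.47 to 2.54). The last of these had the highest mean depth of the 10, 81.0 ± 25 reads.

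The other three had lower PS levels. They were chr7:46499001-46588000 with 51 windows and Gm16387 (PS 1.27%, CAPS 2.73%), chr3:25419001-25457000 with 31 windows in Nlgn1, the gene of the synaptic adhesion protein neuroligin 1 (0.999% and 2.42%), and chr3:93565001-93633000 with 30 windows and Tdpoz3 and Tdpoz4, genes of proteins with TRAF and POZ domains (3.00% and 4.79%). In Nlgn1 all 31 windows with enough cytosines inside the block were members, at 67.8 ± 6.19 reads. A block on chromosome 12 also held 30 windows and was placed after the one on chromosome 3 only by order.

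Over all 87 blocks of 5 or more windows the PS level ran from 0.0957 to 15.2% with a median of 2.89%. In 12 blocks it was under 0.5%, in 50 from 0.5 to below 5% and in 25 it was 5% or more. These groups had median depths of 57.2, 52 and 57.7 TAPSβ reads, TAPSβ levels of 58.9%, 56.0% and 55%, CAPS levels of 2.39%, 4.31% and 10.7%, and CAPS minus PS of 2.14, 1.84 and 1.85 points. The interval of CAPS minus PS lay above 0 in 69 blocks and held 0 in 18, and its value ran from -0.65 to 6.36 points with a median of 1.78. Only 8 of the 87 blocks held no cytosine with a PS signal.

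**Figure D5:**
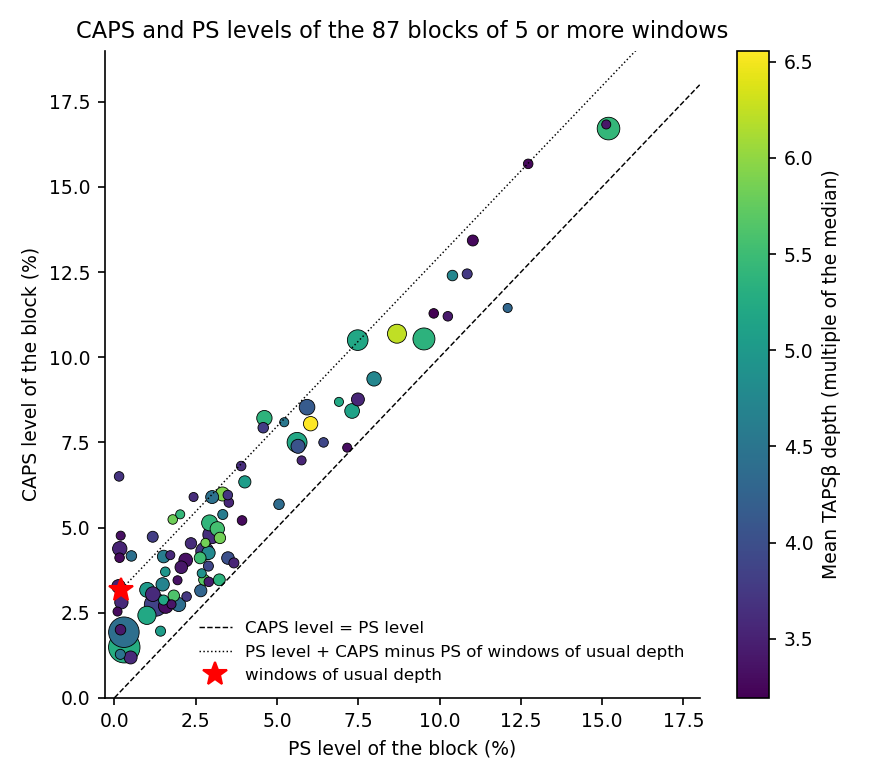
CAPS level against PS level, in percent of base calls, of the 87 blocks of 5 or more windows; the area grows with the number of windows and the colour gives the mean TAPSβ depth as a multiple of the median. The dashed line marks equal levels and the dotted line the PS level plus 2.97 points, the difference in windows of usual depth, whose pooled levels are the star. The blocks spread along these lines from 0.0957 to 15.2% PS.

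Single cytosines show the contrast in 1 window of each of the largest blocks. In the deepest window of the Prl2c3 block, chr13:13012001-13013000, the 3 cytosines taken as highest in PS all had 0 modified PS reads, of 70, 68 and 58, which allows levels of up to 4.29%, 4.41% and 5.17%. In the deepest window of the block on chromosome 14 they also had 0, of 51, 48 and 46 reads. In the Itln1 and Cd244 block, window chr1:173478001-173479000, the highest was the minus-strand cytosine at 173478561, with 54 of 79 PS reads (68.4%, 56.9 to 78.4%), 51 of 74 CAPS reads (68.9%) and 103 of 128 TAPSβ reads (80.5%). The following cytosines there had PS levels of 35.2% and 16.4% and CAPS levels of 41.8% and 28.3%. In the block on chromosome 7, window chr7:46558001-46559000, 1 plus-strand cytosine at 46558704 had 12 of 45 PS reads (26.7%) and 9 of 41 CAPS reads (22.0%), and the next in PS was at 2.94%. In the immunoglobulin block, next to the CpG shown above, 2 further cytosines had PS levels of 32.6% and 10.8% and CAPS levels of 27.9% and 8.60%.

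Exons of 100 protein-coding genes and 53 other genes fell in the windows, and 46 of the 100 had 1 window. Of the 100, 45 were predicted genes named Gm, 9 were Ugt1a genes, which encode glucuronosyltransferases that detoxify small molecules and share their last exons, and 4 were vomeronasal receptors of the Vmn2r family. The 30 with the most windows had 8 to 2 windows each, and further genes that also had 2 windows were not among the 30. Values of a gene are over the windows that touch its exons.

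Genes of immune recognition were among the 30. Cd244 had 7 windows at 60.3, 45.5 and 42.0 reads in TAPSβ, CAPS and PS, a PS level of 13.6% and a difference of CAPS and PS of 1.56 points (0.051 to 3.06). Itln1 had 6 windows at 74.6, 52.7 and 51.5 reads, a PS level of 12.2% and a difference of 1.74 points (0.278 to 3.19). Naip6 and Naip5, inflammasome sensors of bacterial proteins, had 6 and 3 windows at 43.0 TAPSβ reads each. Naip6 had a PS level of 2.42% and a difference of 1.93 points (0.986 to 2.90), and Naip5 had no modified PS read and a CAPS level of 0.986%. Gm9765, in the same block as Cd244 and Itln1, had 3 windows, a PS level of 15.9% and a difference of 1.85 points (-0.49 to 4.18). H60b, a ligand of the receptor NKG2D, had 4 windows with a TAPSβ level of 25.6%, a PS level of 4.12% and a difference of 3.40 points (2.41 to 4.41). Klra17, a lectin-like receptor gene of the Ly49 family, had 3 windows with the highest CAPS level of the 30 genes, 18%, a PS level of 12.7% and a difference of 5.29 points, with a wide interval of 0.881 to 9.71.

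H2-Q7, a class Ib histocompatibility gene, had 3 windows with 226 cytosines. Its TAPSβ level was 12.3%, CAPS 3.09% and PS 0.306%, no cytosine had a PS signal, and the difference was 2.78 points (2.29 to 3.35). Its depths were 46.5 reads in TAPSβ but 24.2 in CAPS and 30.9 in PS. Tmem181b-ps had 6 windows with 224 cytosines, a PS level of 0.161%, no cytosine with a PS signal and a difference of 5.12 points (4.62 to 5.66), with depths of 41.5, 32.8 and 38.9 reads. Neither gene thus had a PS signal at excess depth.

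Among predicted genes, the top gene was Gm13247 on chromosome 4 with 8 windows, 48.6 TAPSβ reads, a PS level of 5.29% and a difference of 2.54 points (1.40 to 3.68). Gm13225, Gm13154, Gm13157, Gm13251, Gm13152 and Gm16503, also on chromosome 4, had 3 or 4 windows each with PS levels of 4.58 to 8.48% and differences of 1.77 to 5.17 points. The interval of the difference held 0 for Gm16503. Gm8138 and Gm9732 on chromosome 14 had 4 and 3 windows, PS levels of 0.166% and 0.279% and differences of 0.908 (0.411 to 1.5) and 1.76 points (0.894 to 2.78). Gm5862, 2410141K09Rik and Gm16387 had 3 windows each, with PS levels of 2.79%, 0.892% and 3.85%.

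The remaining genes gave few windows each. St6galnac1, a sialyltransferase gene, had 4 windows at 59.7 TAPSβ reads, a PS level of 1.20% and a difference of 2.3 points (1.61 to 3.02). Ugt1a6a and Ugt1a7c shared the same 3 windows at 40.7 TAPSβ reads, just over the limit, with PS at 1.64% and a difference of 2.24 points (0.771 to 3.77), and Ugt1a1 had 2 of the windows of this cluster. The vomeronasal receptor genes Vmn2r32 and Vmn2r44 had 3 windows each, PS levels of 2.63% and 3.82% and differences of 1.19 (-0.29 to 2.66) and -0.03 points (-1.94 to 1.87), whose intervals held 0. Rrs1, a gene of ribosome assembly, had 2 windows with 248 cytosines, a TAPSβ level of 11.7% and a PS level of 6%, and 21 of its cytosines had a PS signal. Fam59a and Sp110, the latter a nuclear body protein gene, had PS levels of 1.92% and 3.70%.

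The share of sequence differences and of 5fC and 5caC in the PS levels was not tested. With bulk gDNA, more copies in every cell and a gain of copies in some cells cannot be told apart. The difference in fragment length between CAPS and the other libraries cannot be told apart from the method.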

How the data were processed

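The gDNA of E14 mESCs gave 1 library for each of TAPSβ, CAPS and PS. The authors trimmed reads with Trim Galore 0.3.1, aligned them to mm9 (NCBIM37) with BWA 0.7.12, removed duplicates with Picard 2.3.0, left out reads under a mapping quality of 10 and called modified bases with asTair. Their methods also name filters on regions prone to mapping artifacts and on variants known in E14, and the sources do not say whether these were applied before deposit. Reads that map equally well to several copies are usually given a low mapping quality, so the filter on it can lower depth there. The deposited tables list, for each CpG cytosine, the count of modified reads, the count of unmodified reads and the modified fraction. The fraction was not used, since levels were computed from the counts.

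Windows of 1000 bases were formed on 19 autosomes from cytosines listed in all 3 tables. Levels were modified over all base calls, with exact binomial (Clopper-Pearson) or, for differences, Newcombe 95% intervals, which cover counting error only. Cytosines with at least 5 reads were tested with a one-sided exact binomial test against rates of 0.0072 (CAPS) and 0.0027 (PS), which were not subtracted from levels, and windows with a two-sided Fisher exact test. Both were adjusted by Benjamini-Hochberg over the whole table, with a threshold of 0.05. A limit for a count of 0 is 3 counts of the total. Stretches of 100 and 31 bases were counted over the reference. Python 3.11.15, numpy 2.4.6, scipy 1.17.1 and pandas 2.3.3 were used, and the tests were tested on simulated data.

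The windows and lists were chosen with earlier results of these data known, and the groups by CAPS and PS depth after seeing the values. Named in the text are the 10 deepest windows, the 10 largest blocks, the 3 windows highest and lowest in TAPSβ level and in CAPS minus PS, up to 30 protein-coding genes with the most windows, the 3 cytosines highest in PS in the deepest window of the 5 largest blocks, 5 windows on either side of the limit and 5 CpGs with PS calls on both strands. The 3 deepest windows deep in TAPSβ only were added after their values were seen. Alternatives were other limits on depth, cytosines and reads, other rates, single strands, and leaving out 1 block or chromosome. Chromosomes X and Y were left out.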

Additional observations from a re-analysis of the deposited data

How the results depend on the processing

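Most pooled levels moved by more than their counting intervals, which are narrow. A limit of 65 reads left 504 windows, with 57.1% in TAPSβ, 7.08% in CAPS and 5.30% in PS, and 10 or more cytosines left 1072 windows. The mean of window levels was 59.3% in TAPSβ, 4.14% in PS and 1.64 points in CAPS minus PS. TAPSβ was 54.0% over cytosines with 5 or more reads in all 3 libraries and 53.8% with 10 or more, where PS was 4.03%. Without the cytosines with a PS signal, TAPSβ was 52.8%, CAPS 3.01%, PS 1.13% and CAPS minus PS 1.88 points. Without the block on chromosome 13 that held Prl2c3, they were 53.4%, 6.06% and 4.19% in TAPSβ, CAPS and PS. Without chromosome 4 they were 54.1%, 5.27% and 3.57%, with CAPS minus PS at 1.70 points. Windows chosen by CAPS depth gave 58.5%, 5.54%, 3.82% and 1.72 points. Their pooled TAPSβ level was above the pooled 57.3% of windows of usual depth, the opposite direction. These TAPSβ levels still include what PS reads, 3.82% in windows chosen by CAPS depth and 0.207% in windows of usual depth. Windows deep in all 3 libraries, an alternative chosen after seeing the data, gave 56.8%, 5.86% and 4.09%.

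With the pooled CAPS level of usual windows as the rate, 1928 cytosines (7.65%) were called in CAPS, where the same test called 0.112% of all cytosines. Fisher's test on the plus strand alone called CAPS higher in 159 windows (8.20%, against 6.94% of all) and PS higher in 1, and on the minus strand alone in 160 (8.25%, against 6.88%) and 1, with fewer base calls in each test. These shares lay above the background and the one with both strands below it. Without the cytosines with a PS signal it called PS higher in 0 windows, of the members and of all, which a filter on PS itself favours. With called cytosines in place of the level limit, 259 CpGs had PS on both strands (10.8% of those with a call, against 2.61% in windows of usual depth). Calls were also far more frequent in the windows, at 19.7% of CpGs against 0.0882%, which by itself raises the share on both strands. The cause of these shifts was not tested, beyond the smaller number of windows or base calls that a setting leaves. The 20 other values stayed within their limits (the counting interval for levels, 1.5 times for counts). In the windows deep in TAPSβ only, 8064 CAPS and 7144 PS base calls limit what can be shown. No paired analysis was possible because each method had 1 library.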
